A study of Mus musculus with 2 samples.

Results

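The epidermal proteases and their inhibitors described here are 34 genes: 18 proteases and 16 inhibitors that take part in the shedding of the outer skin layer and in the processing of its proteins. They were taken by gene name from the probes outside the controls of 2 Agilent arrays, where they had 40 probes, out of 24065 named genes on the arrays. The members were 10 kallikreins, the membrane proteases St14 and Prss8, Casp14, Asprv1, Blmh and the proteases Ctsl, Ctsd and Lgmn on one side. On the other side were the inhibitors Spink5, Spink12, Spint1, Spint2 and Cst6, 8 clade B serpins and 3 stefins.

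The arrays measured RNA of whole skin at P0 (postnatal day 0) in the mouse strain C57BL/6N. The Pla2g4e-/- (KO) group was 1 array and the Pla2g4e+/+ (WT) group was 1 array, and each array held a pool of equal amounts of skin RNA from 5 animals, per the labels. Pla2g4e encodes a cytosolic phospholipase A2, and by its title the study concerns psoriatic inflammation. The brighter Pla2g4e probe read 320 in the KO pool and 662 in the WT pool, a difference of -0.96 log2. That probe was well above background in both pools, so its signal was not lost in the KO pool. A second, dim probe read 11.7 in the KO pool and 10.6 in the WT pool. It was well above background in the KO pool alone, though both readings are near background. The labels do not name the deleted stretch, so these probes may lie outside it and check little. The pooled animals cannot be separated, and in whole skin fewer cells of a type and less RNA per cell cannot be told apart. The median reading was 216 in the KO pool and 223 in the WT pool, and 80.8% of probes in the KO pool and 78.0% in the WT pool were well above background. All 4 Y-linked markers examined were well above background in the WT pool alone. The X-linked marker Xist was well above background in both pools, at 2889 in the KO pool and 796 in the WT pool. No Y-linked marker was detected in the KO pool, so the readings show no male there. They do not give the sex of each animal in the WT pool. Ddx3y read 2.36 in the KO pool and 2893 in the WT pool, so sex and genotype cannot be told apart in any difference below. The arrays were hybridised at separate places of a single slide, and place and genotype cannot be told apart either.

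The outer layer of the epidermis is shed cell by cell once the protein bridges between its dead cells, the corneodesmosomes, are cut. Kallikreins, a family of secreted serine proteases, do much of this cutting, and they are held in check by Kazal-type inhibitors such as the product of Spink5. Other proteases of the same layer activate the kallikreins, process profilaggrin or digest it to free amino acids. Most clade B serpins, and cystatins and stefins, bind serine or cysteine proteases.

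Most of these genes had nearly equal RNA in both pools. A gene is represented by its brightest probe that was well above background on both arrays, and 32 of the 34 members had one. Differences are given as KO minus WT, in log2 after each array was scaled to its 75th percentile, with the error that the scanner software gives to the spots. That error is largely a fixed 10% of each signal and leaves out the animals; its median over genes was 0.20 log2. With 1 array per group no test was possible, so a member counts as higher or lower here when its pools differ by 1.5-fold or more. By that rule 3 members were higher in the KO pool, namely Klk12, Klk9 and Serpinb2, and 0 were lower, while 29 lay between. The same rule took in 6.77% of all 19251 measured genes as higher and 4.48% as lower. Of 28 members in the brighter part of the measured genes (above their median signal), 2 were higher and 0 lower, where such genes as a whole gave 4.11% higher and 2.45% lower. At 2-fold, which 2.25% of all measured genes passed upward and 1.44% downward, no member qualified in either direction.

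**Figure D1:**
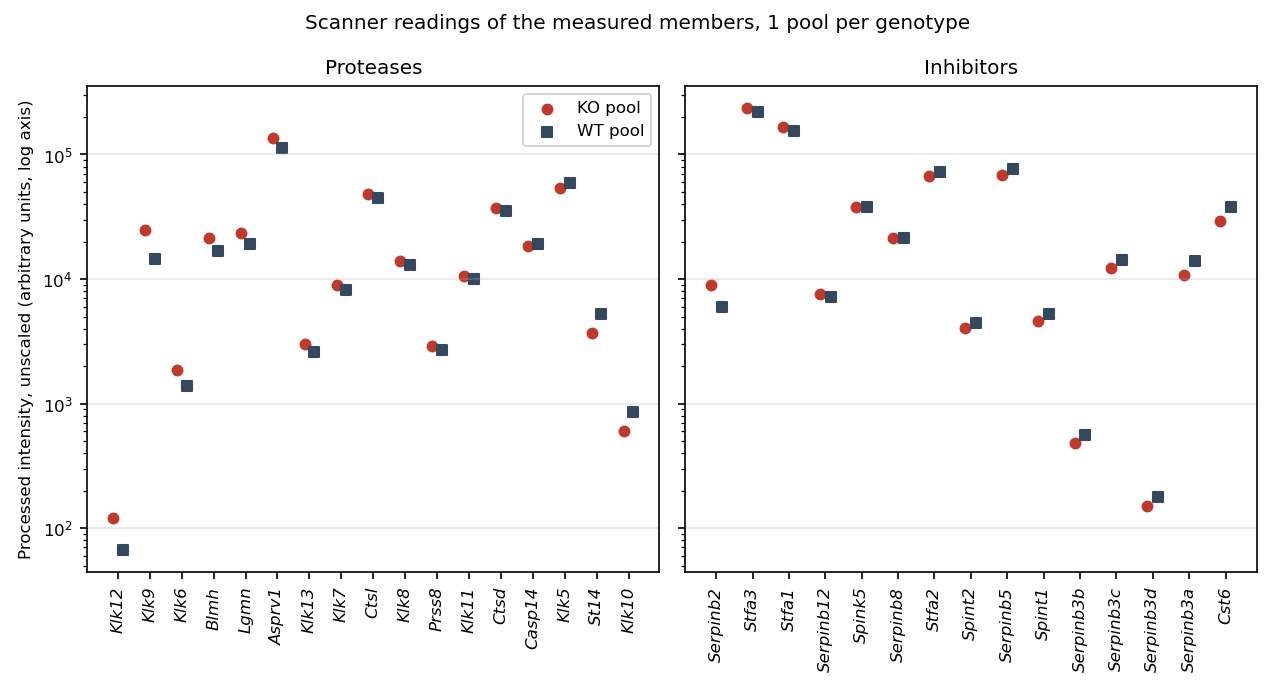
Unscaled processed intensity (log axis, arbitrary units) of each measured protease (left) and inhibitor (right) in the KO pool (circles) and the WT pool (squares), ordered by their scaled difference. The paired points of most genes nearly coincide, while Klk12, Klk9 and Serpinb2 read higher in the KO pool and St14 and Klk10 read lower; heights of different genes come from different probes and are not comparable.

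The proteases leaned toward the KO pool and the inhibitors did not. Of 17 measured proteases, 14 were above 0, with a median of 0.20 log2 and a range from -0.42 to 0.95. Of 15 measured inhibitors, 6 were above 0, with a median of -0.04 and a range from -0.28 to 0.69. Over all measured genes 51.9% were above 0 and the median was 0.01. The inhibitor median lay 0.24 log2 below the protease median. Outside the members the order was the reverse, in lists that, like the members, were chosen with earlier results of these data known. Other inhibitors of skin, listed below, had a median of 0.35 log2 with 37 of 47 above 0. Other proteases of skin had a median of 0.11 log2 with 19 of 32 above 0. Medians of basal keratinocyte markers (0.24) and macrophage markers (0.28) also lay near that of the proteases. The differences of 7 proteases and of 12 inhibitors were no larger than their own scanner error. Those of 5 proteases and 1 inhibitor were more than double it. Together that is 19 and 6 of the 32 measured members, where all 19251 measured genes gave 10759 and 3660.

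**Figure D2:**
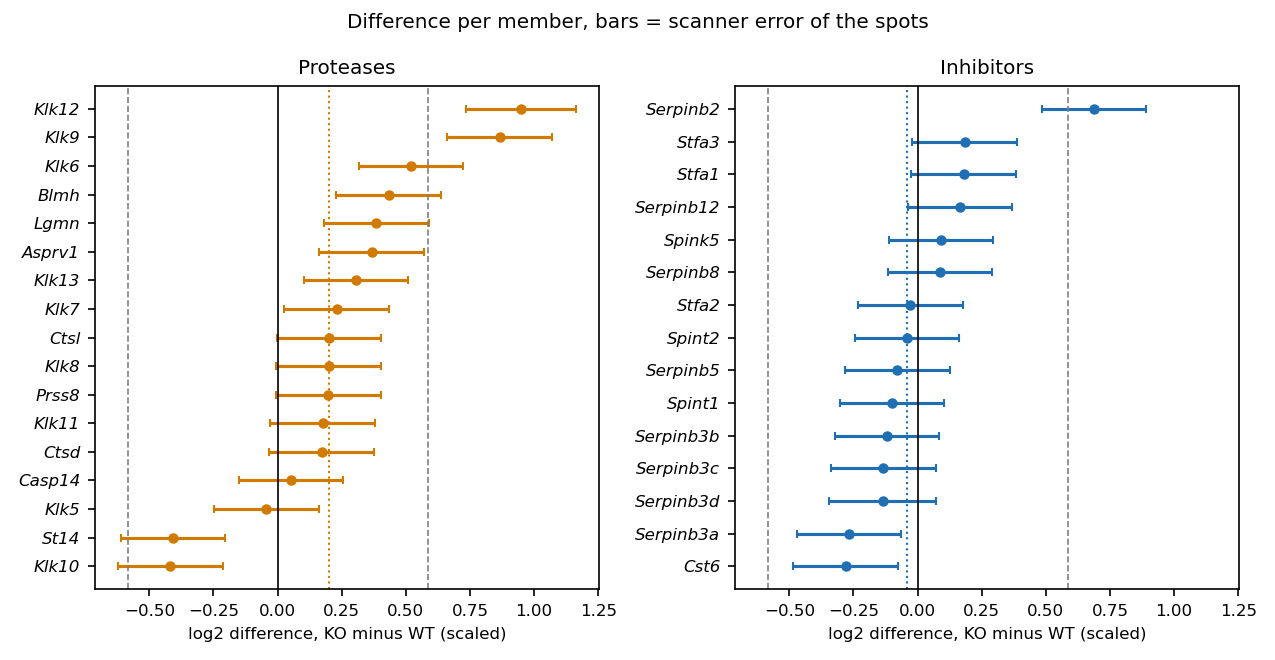
Scaled log2 difference (KO minus WT) of each measured protease (left) and inhibitor (right), 1 array per genotype. Points are differences, horizontal bars the scanner error of the spots, dashed lines 1.5-fold and dotted lines the median of each side, 0.20 for proteases and -0.04 for inhibitors.

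Among the kallikreins, Klk9 had the largest difference from a bright probe. Its probe, at mm9 chr7:51051703-51051762 for NM_028660, read 24806 in the KO pool and 14502 in the WT pool. Its level was 1.82-fold higher in the KO pool, or 0.87 ± 0.20 log2 (scanner error). Klk9 is a secreted serine protease with few known substrates.

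Klk12, a trypsin-like kallikrein, passed 1.5-fold with 1 of its 2 probes. The probe at mm9 chr7:51028889-51028948, for the predicted transcript XM_006541174, read 121 in the KO pool and 66.7 in the WT pool, a difference of 0.95 log2. The probe at chr7:51028738-51028797, for NM_027097, read 86.9 in the KO pool and 80.4 in the WT pool, a difference of 0.20 log2. Both probes were dim, and they bind different stretches of the transcripts. The difference of Klk12 as a gene is therefore not settled by these probes.

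None of the kallikreins best known for cutting corneodesmosomes passed 1.5-fold. Klk5, which activates other kallikreins, read 53499 in the KO pool and 58733 in the WT pool, a difference of -0.04 log2. Klk7, a chymotrypsin-like enzyme that cuts corneodesmosin, read 8969 in the KO pool and 8146 in the WT pool, a difference of 0.23 log2. Klk14, which in human skin activates Klk5 and a receptor of keratinocytes, was not well above background on either array, at 4.83 in the KO pool and 3.61 in the WT pool, and has no fold. Klk8, a trypsin-like enzyme also called neuropsin, differed by 0.20 log2, Klk11 by 0.18 and Klk13 by 0.31.

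Klk6 and Klk10 had the next differences by size, in opposite directions. Klk6, a trypsin-like kallikrein, read 1865 in the KO pool and 1385 in the WT pool, a difference of 0.52 log2 or 1.43-fold. Klk10, a kallikrein whose targets in skin are not well known, read 605 in the KO pool and 862 in the WT pool. Its difference of -0.42 log2 was the lowest of the 32 measured members and left 74.8% of the WT level. Both fell short of 1.5-fold, although each was more than double its scanner error.

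The kallikrein genes lie side by side on chromosome 7, and 7 of the 9 measured members there were above 0, all but Klk10 and Klk5. The mapped kallikrein probes run from base 50950330 to 51106551 of mm9 chromosome 7; the Klk10 probe has no position in the files. In gene order (taken from RefSeq, GRCm38.p6), Klk9 at 0.87 log2 stands between Klk10 at -0.42 and Klk8 at 0.20. The median of the 9 measured kallikreins was 0.23 log2. Of further kallikreins that are no members, Klk4 stood at 0.32, and Klk15 at -1.12 with dim readings of 19.7 in the KO pool and 45.8 in the WT pool. Klk1b5 (1.47), Klk1b3 (0.67) and Klk1b4 (0.25), also on chromosome 7, were left out of the gene order.

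**Figure D3:**
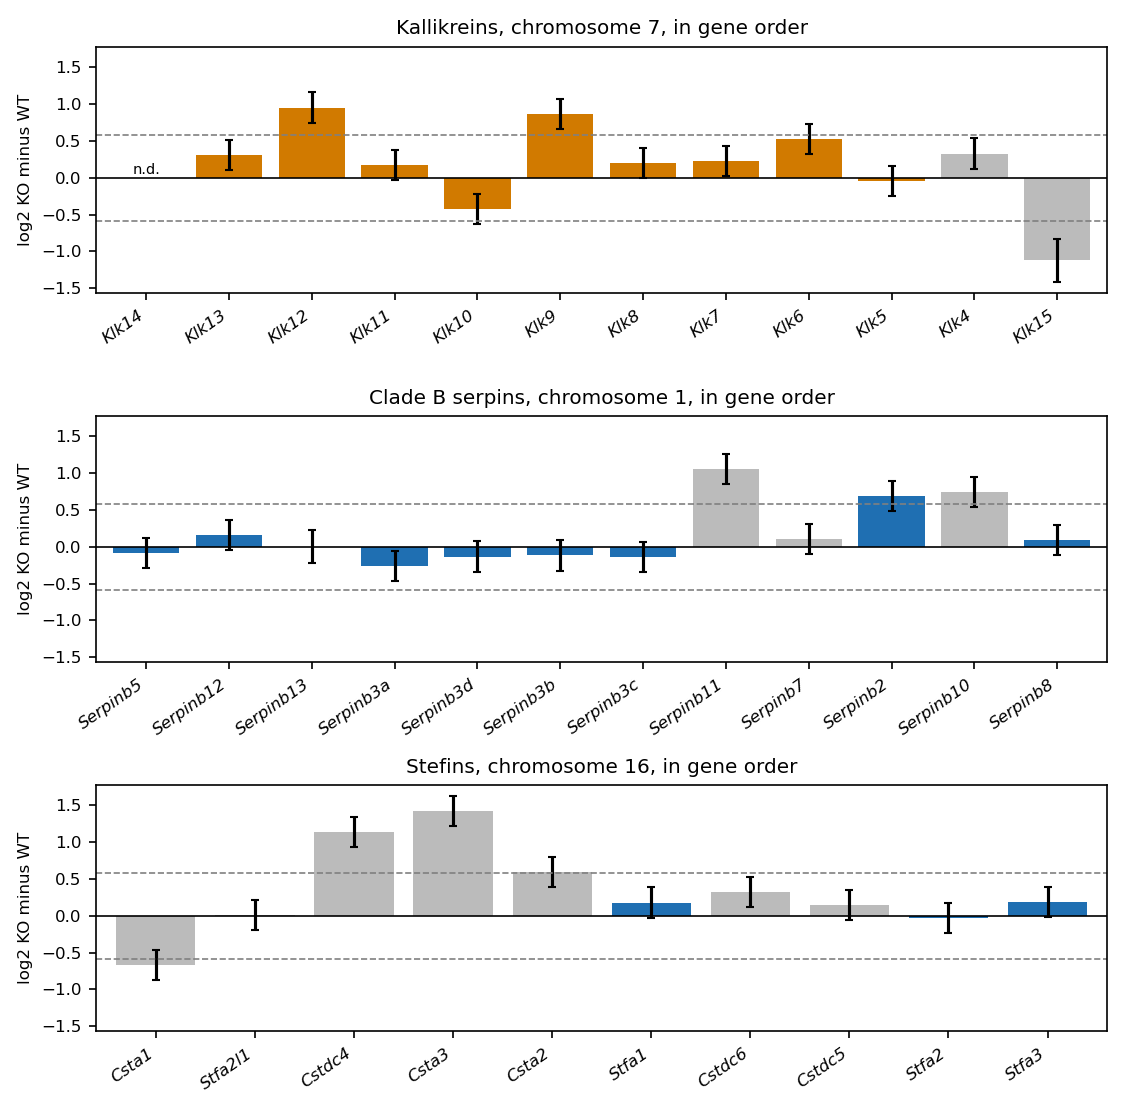
Scaled log2 difference (KO minus WT) of the kallikreins (without the Klk1b genes), the clade B serpins and the stefins, each in gene order along its chromosome. Coloured bars are members, grey bars other genes of the cluster, error bars the scanner error, dashed lines 1.5-fold and n.d. a gene not above background; Klk9 stands beside the lower Klk10, and the members Stfa1, Stfa2 and Stfa3 stay near 0 beside the higher Cstdc4 and Csta3.

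The membrane serine proteases differed from each other. St14 encodes matriptase, which activates the zymogen of Prss8 (prostasin) and kallikreins at the keratinocyte surface. Its probe, at mm9 chr9:30897249-30897308, read 3685 in the KO pool and 5206 in the WT pool, a difference of -0.41 log2 that left 75.4% of the WT level. Prss8 read 2923 in the KO pool and 2715 in the WT pool, a difference of 0.20 log2, and its second probe gave 0.16. Hair follicle cells also express St14, and 11 of 14 hair follicle markers were at least 1.5-fold lower in the KO pool, with a median of -0.91 log2. Their summed unscaled reading was 238864 in the KO pool and 410033 in the WT pool, and all 14 were well above background on both arrays. The Krt71 probe alone gave 93638 in the KO pool and 137858 in the WT pool. The part of the hair follicle in the difference of St14 was not tested.

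Proteases of filaggrin processing and of lysosomes leaned higher without reaching 1.5-fold. Asprv1, an aspartic protease that cuts profilaggrin, read 136097 in the KO pool and 112457 in the WT pool, a difference of 0.37 log2. Blmh, which digests filaggrin fragments to amino acids, read 21354 in the KO pool and 16851 in the WT pool, a difference of 0.43 log2. Casp14, a caspase of cornifying keratinocytes that acts on the same protein, differed by 0.05 log2. The asparaginyl endopeptidase Lgmn read 23298 in the KO pool and 19000 in the WT pool, a difference of 0.39 log2. The cathepsins Ctsl and Ctsd stood at 0.20 and 0.17 log2. Macrophages also express Lgmn and both cathepsins. Of 12 macrophage markers, 1 was at least 1.5-fold higher and 0 were lower, and their median was 0.28 log2. Their summed unscaled reading was 52002 in the KO pool and 50258 in the WT pool, with all 12 well above background on both arrays. The part of macrophages in these differences was not tested.

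Of the inhibitors, Serpinb2 was the member that passed 1.5-fold. Serpinb2 encodes plasminogen activator inhibitor 2, a clade B serpin that binds urokinase and is abundant in the outer epidermis. Its probe, at mm9 chr1:109422046-109422105 for NM_011111, read 8988 in the KO pool and 5947 in the WT pool. That is 0.69 ± 0.20 log2 (scanner error), or 1.61-fold. Plau, the gene for urokinase, read 305 in the KO pool and 367 in the WT pool, a difference of -0.17 log2.

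The region before the start of Serpinb2 is shown because it holds matches to both a TATA box and an AP-1 motif, while that of Klk9 is shown as the other bright member past 1.5-fold. Both are the 250 bases before the transcription start in the RefSeq table (GRCm38.p6), on the plus strand, at chr1:107511173-107511422 and chr7:43791641-43791890. Capitals mark matches to TATAAA or TGANTCA (AP-1).
Serpinb2: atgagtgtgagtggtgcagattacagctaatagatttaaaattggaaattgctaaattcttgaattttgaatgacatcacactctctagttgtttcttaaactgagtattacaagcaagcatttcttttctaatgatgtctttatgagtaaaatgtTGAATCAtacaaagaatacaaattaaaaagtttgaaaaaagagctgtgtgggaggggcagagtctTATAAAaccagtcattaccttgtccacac
Klk9: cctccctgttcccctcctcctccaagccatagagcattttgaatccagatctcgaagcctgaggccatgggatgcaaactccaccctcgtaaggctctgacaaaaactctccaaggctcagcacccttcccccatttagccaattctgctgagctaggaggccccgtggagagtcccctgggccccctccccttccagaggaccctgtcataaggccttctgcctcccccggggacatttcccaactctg
The Serpinb2 match to TGANTCA begins 94 bases before the start and the match to TATAAA 29 bases before it. The Klk9 stretch holds no match to either. Both strands were searched, along with TTCNNNGAA (STAT) and a glucocorticoid receptor motif, neither of which matched in these stretches. Of 32851 promoter entries of this length, 12.4% hold TATAAA, 6.75% TGANTCA, 7.02% TTCNNNGAA and 0.387% the glucocorticoid receptor motif. Serpinb2 has 2 starts in the table, and the entry shown is the upstream one. The entry of the other start holds the same TATAAA and TGANTCA matches and a match to TTCNNNGAA 77 bases before that start.

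Among members with a promoter entry, 29 in all, 6 held TATAAA and 4 held TGANTCA at the first start listed. The 6 with TATAAA are all clade B serpins: Serpinb2, Serpinb12 and the 4 Serpinb3 genes. Their matches begin from 29 (Serpinb2) to 220 (Serpinb12) bases before the start, and that of Serpinb3d lies on the opposite strand. The letters alone do not make these stretches TATA boxes. All 4 with TGANTCA are clade B serpins of chromosome 1, shown with 10 bases on each side of the capitals to compare them with the difference of each gene.
Serpinb2: agtaaaatgtTGAATCAtacaaagaat
Serpinb5: aagttgggccTGAATCAtgtcttccaa
Serpinb8: gtgggaagtgTGAGTCAcagagtgttc
Serpinb12: aaaaacaatcTGATTCAcgatcattat
These genes stood at 0.69, -0.08, 0.09 and 0.16 log2 in that order, and all but Serpinb2 lay within their scanner error of 0.20. A part of the motif in these differences was not tested. A match is a description of the sequence and not a binding site.

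The other clade B serpins differed little. Serpinb5 (maspin), abundant in epithelia, read 68155 in the KO pool and 76721 in the WT pool, a difference of -0.08 log2. Serpinb8 read 21217 in the KO pool and 21276 in the WT pool. Serpinb12 differed by 0.16 log2 with one probe and 0.19 with another. The shared end of those Serpinb12 probes is shown because it bears on how readings can be compared.
Serpinb12: ttgggaaacttctctccagaatag
The probes share these 24 of their 60 bases. One read 7539 in the KO pool and 7164 in the WT pool and the other 3660 in the KO pool and 3409 in the WT pool, so readings of different probes are no measure of relative amount, while their differences nearly coincide.

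Members of the Serpinb3 group, mouse relatives of the human squamous cell carcinoma antigens that inhibit serine or cysteine proteases, were all slightly below 0. Serpinb3a stood at -0.27 log2, Serpinb3d at -0.14, Serpinb3c at -0.13 and Serpinb3b at -0.12. The Serpinb3c probe was printed 10 times on each array. Its spots read from 11611 to 12748 in the KO pool and from 13485 to 15033 in the WT pool, and the ranges do not overlap. The spot-by-spot difference was -0.13 ± 0.019 log2 (SD over 10 spots of 1 array pair), below 0 at all 10 positions. These spots measure the printing and scanning of 1 pair of pools and say nothing of the spread between animals.

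The probes for Serpinb3a and Serpinb3c are near copies of each other over part of their length. The best 30-base stretch is shown, with the base that differs in capitals.
Serpinb3a: ttcttctaatctagcatAtatctgtgccct
Serpinb3c: ttcttctaatctagcatGtatctgtgccct
In the 48 bases where they overlap, 43 are identical, so RNA of either gene may bind both probes and the pair is not independent.

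The cystatins and stefins, which inhibit cysteine proteases, had no member past 1.5-fold. Cst6 (cystatin M/E), which inhibits legumain and cathepsin L, read 29049 in the KO pool and 37583 in the WT pool, and its difference of -0.28 log2 was the lowest of the inhibitors. Stfa3 read 235645 in the KO pool and 220993 in the WT pool, a difference of 0.18 log2. Stfa1 read 164918 in the KO pool and 155178 in the WT pool, also 0.18 log2, and Stfa2 stood at -0.03.

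The other genes of the stefin cluster on chromosome 16, from a list of further inhibitors, varied. Csta3 read 7710 in the KO pool and 3074 in the WT pool, a difference of 1.42 log2. Cstdc4 read 3615 in the KO pool and 1754 in the WT pool (1.13 log2), Csta2 stood at 0.60 and Csta1 at -0.67. Cstdc6 (0.32), Cstdc5 (0.15) and Stfa2l1 (0.01) did not pass 1.5-fold. The Cstdc4 and Stfa3 probes share a run of 22 bases, the longest run found between the probe of a member and that of a cluster gene past 1.5-fold, and the stretch around it is shown with differing bases in capitals.
Cstdc4: aacttCaTggttaccagactaacaaaacca
Stfa3: aacttAaGggttaccagactaacaaaacca
RNA of either gene may bind both probes, whose differences were 1.13 log2 for Cstdc4 and 0.18 log2 for Stfa3. Stefins are also abundant in neutrophils. Neutrophil markers came to 12 measured genes, and 7 of these passed 1.5-fold upward and 1 downward around a median of 1.09 log2. Among the 5 brighter ones, 2 passed upward and 1 downward, and the median was 0.08 log2. Of the defining markers, Mmp9 was well above background in the KO pool alone, and Ly6g had no probe under that name. The summed unscaled reading was 156241 in the KO pool and 150730 in the WT pool. Of this the Csf3r probe alone gave 113910 in the KO pool and 125040 in the WT pool. The neutrophil part in the stefin values was not tested.

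The inhibitors of the membrane proteases and of the kallikreins stood near 0. Spink5, whose loss causes Netherton syndrome in humans, read 38029 in the KO pool and 38018 in the WT pool, a difference of 0.09 log2. Spint1, which blocks matriptase and prostasin, read 4590 in the KO pool and 5240 in the WT pool, a difference of -0.10 log2, and its second probe gave -0.12. Spint2, a relative of Spint1 with overlapping targets, stood at -0.04 with its brighter probe and at 0.20 with the other, the 1 member whose measured probes differed in sign. Spink12, a Kazal-type inhibitor, was not well above background on either array, at 2.64 in the KO pool and 7.32 in the WT pool, and has no fold.

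Spink5, Spint1, Spint2 and Cst6 were set against proteases that each is known to block. In these pairs the differences of inhibitor and protease lay at most 0.67 log2 apart, by the brightest probe of each. Serpinb2 (0.69) and Plau (-0.17) were not among the pairs, nor were the other inhibitors. Cst6 minus Lgmn was -0.67 and Cst6 minus Ctsl -0.48, with a scanner error of 0.29 for each. Spint1 minus St14 was 0.31 and Spint2 minus St14 0.37, while the same inhibitors minus Prss8 gave -0.30 and -0.24. With the other probe of Spint2, an alternative chosen after seeing the data, the Spint2 values became 0.60 against St14 and -0.0024 against Prss8. Spink5 minus Klk5 was 0.14 and Spink5 minus Klk7 was -0.14, both within the error of 0.29. These values compare changes and not amounts, since the probes differ.

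Genes outside the 34 members on the inhibitor side included more with large differences, a contrast that was not tested. Members and lists alike were chosen with earlier results of these data known, so the contrast is a description only. Of 47 measured genes in a list of other inhibitors of skin, 19 passed 1.5-fold upward and 4 downward, and their median was 0.35 log2. Over all measured genes 6.77% passed upward and 4.48% downward. Among the 18 brighter genes of the list, 7 were higher and 1 lower, where brighter genes as a whole gave 4.11% and 2.45%. The 6 highest were the acute phase serpin Serpina3n (3.37 log2), Spink7 (2.66), the leukocyte elastase inhibitor Slpi (2.55), Wfdc12 (1.60), Csta3 (1.42) and Serpinb9b (1.40). Slpi read 1769 in the KO pool and 322 in the WT pool. The 4 lower were Spint3 (-1.49), Csta1 (-0.67), Wfdc21 (-0.64) and Wfdc18 (-0.60). In the clade B cluster, Serpinb11 (1.06) and Serpinb10 (0.74) were higher too, while Serpinb7, between Serpinb11 and Serpinb2 in gene order, stood at 0.11.

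A list of other proteases of skin held 32 measured genes, with a median of 0.11 log2. At 1.5-fold, beside 6.77% higher and 4.48% lower over all measured genes, 2 of the list were higher and 3 lower. The higher were Klk1b5 (1.47) and Klk1b3 (0.67), and the lower Klk15 (-1.12), Tmprss11e (-0.75) and Capn12 (-0.72), all from probes below the median signal. Klk1b genes are close copies of each other and may share signal.

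Substrates and partners of shedding had a median of 0.17 log2 over 32 measured genes. Of these, 5 were at least 1.5-fold higher and 2 lower, beside 6.77% and 4.48% of all measured genes. Genes of corneodesmosome proteins that kallikreins cut did not pass 1.5-fold, with Cdsn at 0.22, Dsg1a at 0.10 and Dsc1 at 0.20 log2. The higher genes were the envelope proteins Rptn (1.74), Hrnr (0.69) and Ivl (0.63), the sodium channel subunit Scnn1b (0.70) and Il1b (0.60). The lower were the deiminases Padi3 (-0.88) and Padi1 (-0.66). Padi3 is also expressed in hair follicles, whose markers are given above. Markers of basal keratinocytes had a median of 0.24 log2 over 7 genes, with 0 past 1.5-fold, and those of suprabasal keratinocytes 0.11 over 7, with Ivl the 1 past it.

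**Figure D4:**
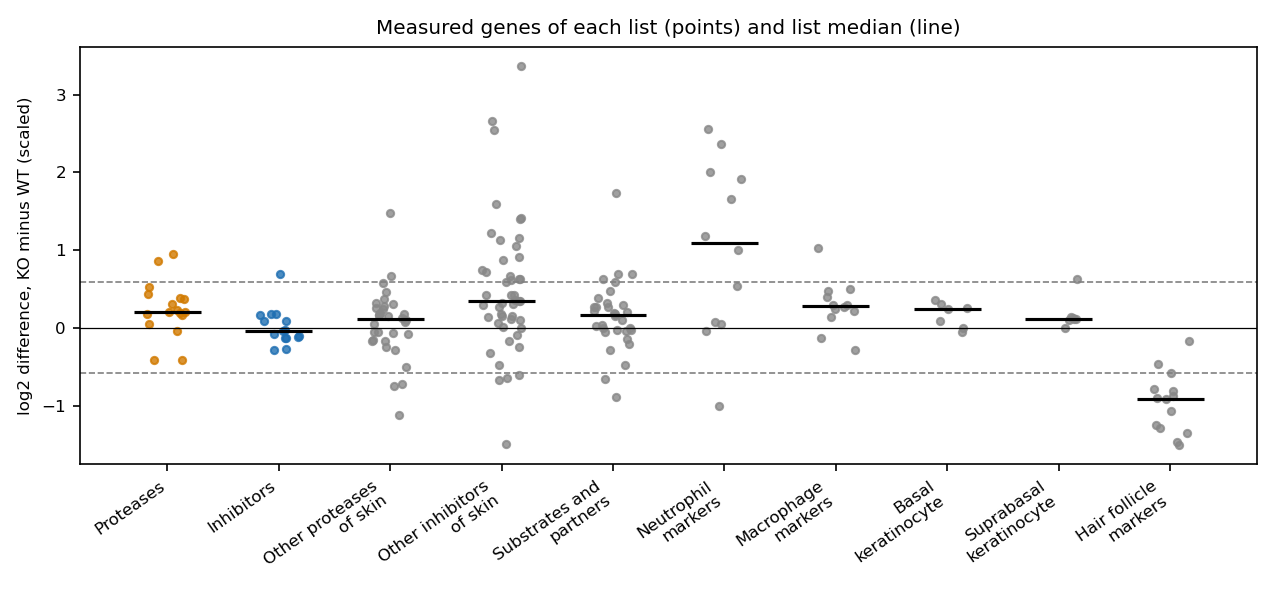
Scaled log2 difference (KO minus WT) of the measured genes (points) in each list, with the list median as a line and 1.5-fold as dashed lines. The members gather near 0, with medians of 0.20 for proteases and -0.04 for inhibitors, while other inhibitors of skin reach 3.37 and hair follicle markers have a median of -0.91.

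Over 8 other settings for scaling, background, probes and filters, 31 of 32 members kept one sign, and Spint2 did not. Klk9 ranged from 0.82 to 0.87 log2 and Serpinb2 from 0.64 to 0.69, both past 1.5-fold in each. Klk12 ranged from 0.58 to 0.95: it stood at 0.67 with normexp background correction, and averaging its probes took it under 1.5-fold. Small differences also moved by more than 1.5 times, as with Serpinb3d, at -0.03 with normexp, and Stfa3, at 0.06 with quantile scaling.

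**Figure D5:**
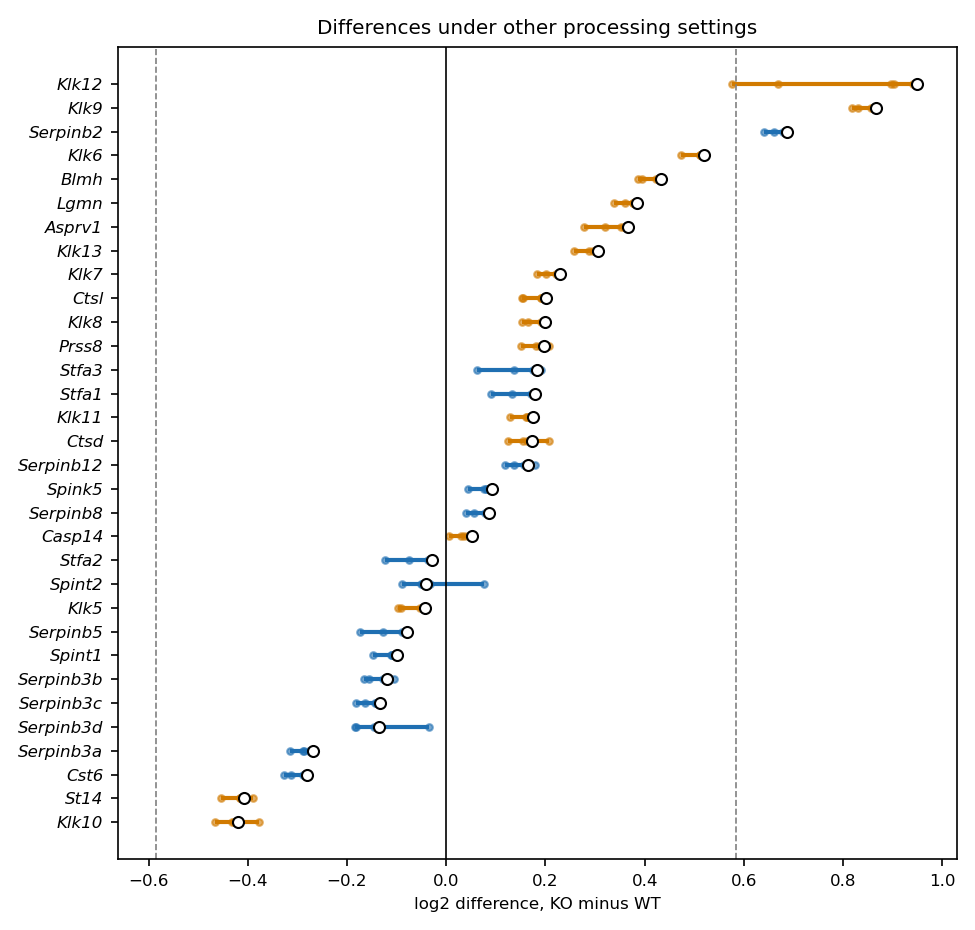
Log2 difference (KO minus WT) of each member as reported (open circles) and under the other settings (filled points, orange for proteases and blue for inhibitors), with 1.5-fold as dashed lines. The spread is widest for Klk12, from 0.58 to 0.95, and Spint2 is the member whose points lie on both sides of 0.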

How the data were processed

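RNA from 2 pools of skin, each of 5 animals, was hybridised to 1 Agilent array each (200 ng of total RNA, Cy3), per the labels. The authors deposited scanner files with the intensity of each spot, from which Agilent Feature Extraction 11.5.1.1 had subtracted a fitted background before dividing by a spatial trend, per the file headers. Probes are 60 bases long with mm9 positions. The deposited value table holds a ratio per spot, linear and not centred by gene: each value is a spot's processed intensity over 1 number per array, 2273 for KO and 2406 for WT, and its medians are 0.0969 for KO and 0.0946 for WT. Its scale and direction are thereby known. No other normalization step is given in the sources used here.

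Control spots and 234 outlier spots were left out, log2 intensities were averaged per probe, and the 75th percentile of each array was subtracted (Python 3.11.15, pandas 2.3.3). No spot was saturated. Probes were named through a RefSeq table by accession (28326), symbol (2204) or synonym (174), and 1526 kept the file's name; all 40 member probes matched by accession. A gene took its brightest probe well above background on both arrays. Every member past 1.5-fold, above background on 1 array alone or with probes of unlike sign was to be named with its values, the rest by family, and of other lists up to 6 genes past 1.5-fold per direction. Cluster neighbours, corneodesmosome genes and Plau fall outside that rule and were chosen after their values were seen. The members and lists were chosen with earlier results of these data known. Normexp and quantile values came from limma 3.58.1 (R 4.3.3). The steps were tested on simulated data. The number of arrays limits the precision.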

Additional observations from a re-analysis of the deposited data

How the results depend on the processing

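With 1 array per group, no replicate could be left out. No paired analysis was possible because each group is 1 array. Other settings were scaling (75th percentile of detected probes, median, quantile), normexp, the deposited ratio, the mean over probes, no filter, brighter genes alone and a 2-fold size. The protease median stayed between 0.15 and 0.22 log2, the inhibitor median between -0.11 and -0.03, and their gap between -0.31 and -0.23. The count of higher proteases was 2, against 1 with the mean over probes, 1 among brighter genes and 0 at 2-fold. The first leaves Klk12 under 1.5-fold, the second drops it as dim, and at 2-fold neither Klk12 nor Klk9 passes. The count of higher inhibitors was 1, against 0 at 2-fold. The count of lower inhibitors was 0, against 1 without a filter, where Spink12 enters though not above background. Over all genes the higher and lower counts were 1303 and 862, against 853 and 422 with normexp, 2208 and 1329 without a filter, and 396 and 236 among brighter genes. Dim probes, such as those of Klk12, and undetected ones, Klk14 and Spink12, are limited by signal over background.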
